A study of Homo sapiens with 26 samples.

Results

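Ribosome footprint abundance was compared between K562 and HEK293T cells in the 14 libraries, of 26 in the series, that were prepared from these lines without a nuclease-based depletion kit. The K562 group held 8 libraries of 20 to 34 nt fragments, in pairs: undepleted, Qiagen FastSelect, riboPools, and riboPools with cold elution. The HEK293T group held 6 libraries of 15 to 35 nt fragments, also in pairs: undepleted, legacy Ribo-Zero Gold and RiboCop. K562 cells were grown in RPMI and HEK293T cells in DMEM, both with serum, and all lysates were made on ice with cycloheximide and digested with RNase I to monosomes. Each line was profiled in an experiment of its own, so the line cannot be told apart from medium, fragment size, sequencing depth and anything else that differed between the experiments. The depletion kits also differed between the lines, and only the undepleted libraries were common to both. The labels do not say that the libraries came from separate cultures, so the p-values below measure only the spread between libraries, which may be technical. Libraries of each line from other experiments served as a comparison: 1 undepleted K562 library of 20 to 34 nt from the fragment-size experiment, whose label also names NEBNext, and 1 undepleted library of HEK293FT, a fast-growing relative of HEK293T.

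K562 is an established line from a patient with chronic myeloid leukaemia in blast crisis. It carries the BCR-ABL1 fusion kinase and has features of early red cell and megakaryocyte precursors, including production of embryonic and fetal globins. HEK293T is an adherent line made from human embryonic kidney cells by transformation with adenovirus DNA, with SV40 large T antigen added later, a viral oncoprotein that binds RB. It is known to express genes of neuronal and of early kidney cells. Ribosome profiling sequences the mRNA fragments protected by ribosomes, so the footprint count of a gene reflects both its mRNA level and how densely ribosomes occupy it. These could not be separated here, because matched mRNA libraries were not analysed.

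Coding-sequence counts summed to 1031889 to 5795774 per K562 library and to 120019 to 421521 per HEK293T library. At these depths, 3 counts over the whole group correspond to 0.1231 CPM (counts scaled to a library total of 1000000) in K562 and 2.009 CPM in HEK293T. A gene without counts in a line is therefore bounded far less tightly in HEK293T, and folds against such a group are given as at least the ratio to that floor. With 1 to 3 counts, the ratio of pooled CPM is given with its 95% interval for counting error. The defining K562 markers were present in all 8 K562 libraries: HBG1 at 3848 CPM or more, GATA1 at 386.1 or more and TFRC at 1153 or more. HBG1 and GATA1 had no count in any HEK293T library. Markers of other blood lineages summed to 66.05 to 77.53 CPM over 24 genes in K562 and to 0 to 2.846 CPM in HEK293T, with 14 of the 24 at or below the floor in both lines. Markers of other solid tissues summed to 69.36 to 94.0 CPM in K562 and to 83.32 to 130.8 CPM in HEK293T, with 16 of 24 at or below both floors.

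Of 8740 genes with enough counts to be tested, 2794 (32.0%) differed by at least 2-fold at an adjusted p below 0.05 (edgeR's quasi-likelihood test, Benjamini-Hochberg adjustment), the rule for calling a gene throughout. Of these, 1433 genes (16.4% of those tested) were higher in K562 and 1361 (15.6%) were lower. With library totals alone as the scaling, the median of all genes moved from 0.01 to -0.16 on the log2 scale, and the split became 1187 higher and 1694 lower. The change reached 10-fold for 360 genes in the K562 direction and for 421 in the HEK293T direction. Genes called higher in K562 held 22.8% of K562 CPM and 7.03% of HEK293T CPM, whereas genes called lower held 12.1% of HEK293T CPM and 2.99% of K562 CPM. The libraries of the lines did not overlap in CPM for 3802 of the 8740 genes (43.5%), and for 2385 of the 2794 called genes. The count filter asked for 9.228 CPM in at least 6 of the 14 libraries, which 1976 genes met through the K562 libraries alone and 698 through the HEK293T libraries alone. Such genes were high in the line that brought them in, so the calls among them partly restate the filter. Of the 5776 genes that met it in each line, 1115 (19.3%) were called, 509 higher (8.81%) and 606 lower (10.5%). For the gene lists whose calls are counted below, the members of this kind, or those brought in by a single line, are given beside the whole count. A further 10738 genes were not tested, and several of them are described by their counts alone. Across 8731 genes, the fold change had a Spearman correlation of -0.17 with coding length and of 0.058 with coding GC content, a description over genes of the same libraries.

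**Figure D1:**
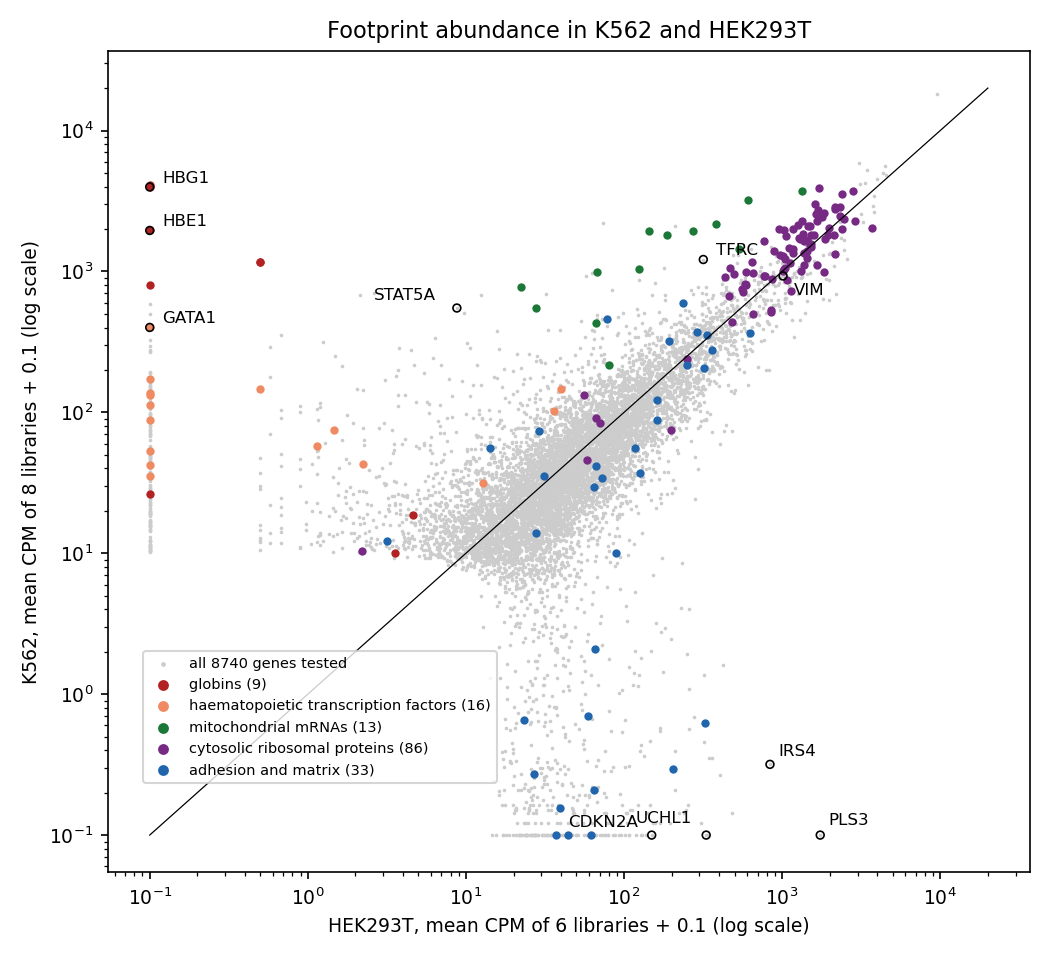
Mean CPM plus 0.1 of each tested gene in the 6 HEK293T libraries (horizontal axis) and the 8 K562 libraries (vertical axis), both on log scales, with 5 gene lists in colour and 7 further genes circled. Points along the left and lower edges are genes without a count in HEK293T or K562: HBG1, HBE1 and GATA1 lie at the left edge, and PLS3, UCHL1 and CDKN2A at the lower edge.

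The same direction was seen in the libraries of the other pair of experiments, which shared no library with the comparison. Of 1881 called genes with at least 20 counts over the K562 size library and the HEK293FT library, 1815 (96.5%) had a ratio in the same direction, against 78.3% of 6836 tested genes of any kind. The ratio was also at least 2-fold for 1383 of the 1881 genes (73.5%). Another fit took the 4 experiments as the replicates, with 2 per cell type, and used only undepleted libraries, summed within each experiment. It called 2449 of 7595 genes (32.2%), 1090 higher (14.4%) and 1359 lower (17.9%). It shared 1874 genes with the fit over 14 libraries, all in the same direction. Among genes tested in both fits, these were 82.2% of the 14-library calls and 79.4% of the calls by experiment. The undepleted libraries of the 14 also entered the fit by experiment, so this overlap is partly fixed in advance. When the K562 kit experiment was left out of this fit, leaving 1 K562 library, 414 genes were called, and that library was then assumed to vary like the HEK293 libraries.

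Experiments also differed within a cell type. Over 620 genes with at least 50 undepleted counts in each experiment, the log2 ratio had an SD, less counting error, of 0.105 between the K562 experiments and of 0.38 between HEK293T and HEK293FT. Between the lines it was 0.631 for the kit experiment against HEK293T and 0.649 for the size experiment against HEK293FT. No gene of the 620 differed by 2-fold between the K562 experiments and 13 (2.1%) did between HEK293T and HEK293FT, compared with 63 (10.2%) and 79 (12.7%) between the lines. The HEK293T to HEK293FT ratio also had a Spearman correlation of 0.41 with coding length and of -0.33 with GC content, against 0.027 and -0.022 between the K562 experiments.

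**Figure D2:**
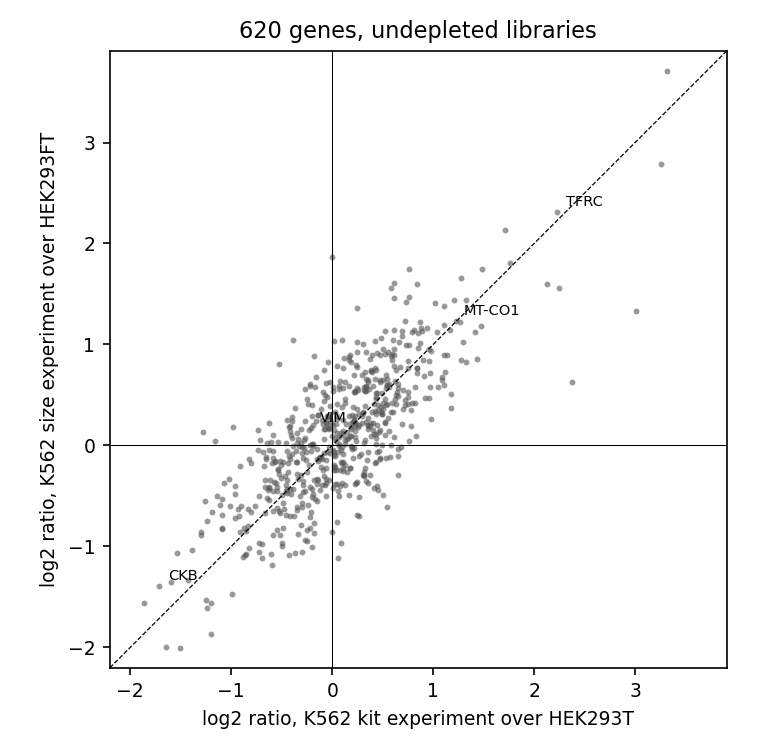
Log2 ratio of K562 to HEK293T (horizontal axis, undepleted libraries of the kit and HEK293T experiments) and of K562 to HEK293FT (vertical axis, libraries of the other experiments) for the 620 genes with at least 50 counts in each experiment. The points follow the dashed line of equality, with a Pearson correlation of 0.769 and a Spearman correlation of 0.73 over genes; TFRC lies high and CKB low on both axes.

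The alpha chains HBZ, HBA1 and HBA2 and the beta-like chains together made up 1.32% ± 0.02 (SD, n = 8) of all K562 coding counts, and had 8 counts in all in the 6 HEK293T libraries. The fetal gamma globins had the highest CPM. HBG1 (chr11:5248079-5249859, minus strand, GRCh38) had 3848 to 4133 CPM in K562, with a median of 3954, and 0 counts in HEK293T, so it was at least 1988-fold higher. The row named HBG2 had 3923 to 4183 CPM and was at least 2053-fold higher. The embryonic beta-like chain HBE1 had 1873 to 2014 CPM (median 1960) and the embryonic alpha-like chain HBZ 765.8 to 831.2 CPM (median 808.9). Neither had a count in HEK293T, which placed them at least 966.9-fold and 395.2-fold higher.

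The coding sequences of the gamma globins differ at only 2 of 444 positions, which decides how far their counts can be read apart. Counted from the A of the start codon, the differences between HBG1 and HBG2 are C227T and C410G. They are shown in capitals in the 41 bases around each, from position 207 to 247 and then from position 390 to 430:
HBG1: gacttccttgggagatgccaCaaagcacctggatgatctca
HBG2: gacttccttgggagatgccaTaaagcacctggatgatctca
HBG1: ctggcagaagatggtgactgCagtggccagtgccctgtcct
HBG2: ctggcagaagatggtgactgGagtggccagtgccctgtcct
Of the 415 windows of 30 bases in HBG1, 355 (85.5%) occur unchanged in HBG2. The transcript behind the HBG2 row has a different coding sequence in GENCODE 29, so its level per length is not given. The coding sequences of the adult alpha globins HBA1 and HBA2 are identical over all 400 windows. Their K562 counts were split almost evenly, with 50.2% (95% binomial interval 49.8 to 50.6, counting error only) on HBA1, so only their sum of 2339 CPM is informative. How reads that match several transcripts were assigned is not given in the sources used here.

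Per kilobase of coding sequence, HBG1 stood at 8956 CPM in K562, HBA1 and HBA2 together at 5452, HBE1 at 4399 and HBZ at 1870. Other transcripts also hold 92.8% of the HBG1 windows, 87.2% of those of HBE1 and 87.0% of those of HBZ. The order of these levels is therefore uncertain. The adult beta chain HBB stood at 22.4 and the minor adult chain HBD at 59.3. HBB was the exception among the 9 tested globins. It had 6.165 to 13.17 CPM in K562 (median 10.02) and 0 to 20.65 CPM in HEK293T, where all 6 counts came from the second RiboCop library, so the groups overlapped. Its fitted log2 change of 1.46 ± 0.52 (SE) had an edgeR adjusted p of 0.009434, and it was no longer called without either Ribo-Zero Gold library (1.10 and 1.01) or without both (0.49). All 9 tested globins met the count filter through K562 alone and were called higher, a count that the filter partly fixes, and the other globin of the list was at or below the floor in both lines.

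Of the 19 haematopoietic transcription factors, 16 were tested and called higher in K562, but 15 of these met the count filter through K562 alone. Of the 3 not tested, 1 had more and 2 had fewer counts per library total in K562. GATA1, the master regulator of red cell and megakaryocyte genes (chrX:48786554-48794308, plus strand), had 386.1 to 414.1 CPM in K562 (median 401.9) and 0 counts in HEK293T, at least 197.0-fold higher. Its partners in the red cell complex followed. LYL1 was at least 68.64-fold higher and LMO2 at least 26.44-fold. TAL1 had 38.75 to 48.69 CPM in K562 against 3 counts in HEK293T, a ratio of 21.66 (7.392 to 105.2). KLF1, which activates adult globin genes, was at least 43.9-fold higher, NFE2 at least 55.7-fold and the repressor GFI1B at least 65.91-fold. SPI1, the regulator of myeloid genes, had 33.12 to 49.42 CPM in K562 and none in HEK293T. MYB, which maintains progenitor growth, had 1 HEK293T count against 135.6 to 154.0 CPM in K562, a ratio of 219.8 (39.42 to 8683).

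Some of these factors also had counts throughout the HEK293T libraries. GATA2 had 27.54 to 57.62 CPM in HEK293T (median 38.02) and 134.1 to 164.7 in K562 (median 141.9), a 4.24-fold difference without overlap (adjusted p = 2.458e-31, edgeR). The adaptor LDB1 differed 2.987-fold. ZFPM1, the cofactor of GATA1, differed 3.131-fold, and in the undepleted libraries alone its log2 change was 0.49 and not called. BCL11A, the repressor of gamma globin genes, went the other way: it had 1 count in K562 and 38 in HEK293T, a K562 level lower by a ratio of 620.4 (104.8 to 25140). BCL11A was not tested over the 14 libraries and was called lower with the experiments as replicates.

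**Figure D3:**
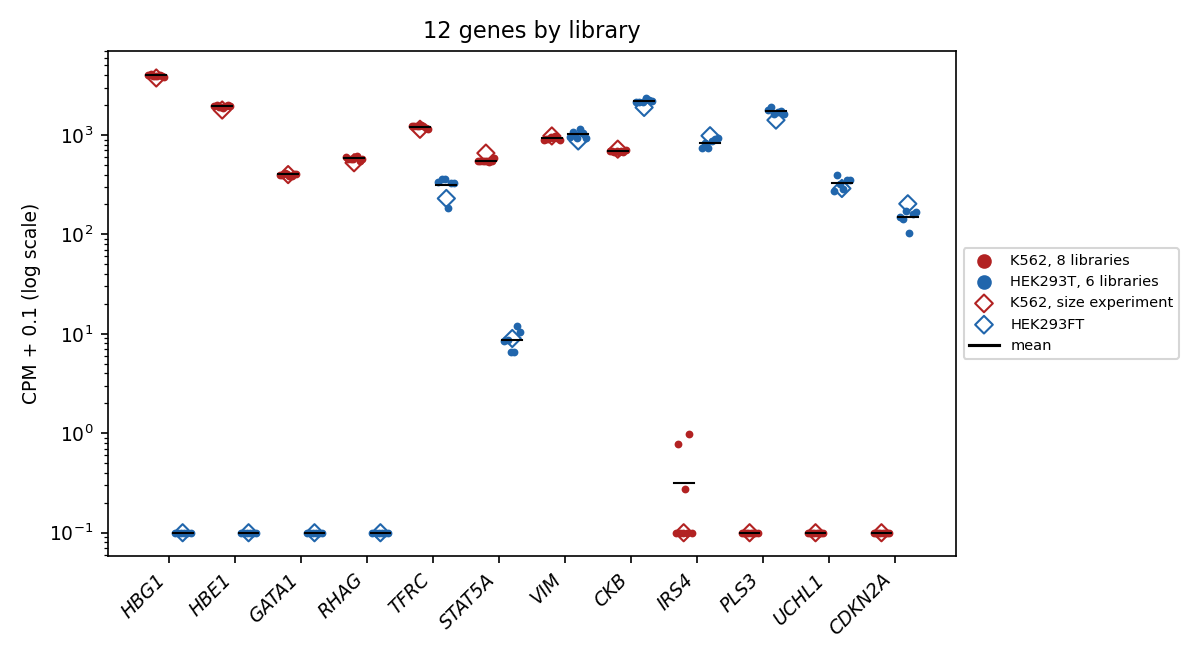
CPM plus 0.1 on a log scale for 12 genes in each K562 library (red points, 8) and HEK293T library (blue points, 6), with group means as black bars and the libraries of the other experiments as open diamonds. HBG1, HBE1, GATA1 and RHAG have no count in any HEK293T or HEK293FT library, PLS3, UCHL1 and CDKN2A none in any K562 library, and the VIM points overlap.

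Genes of the red cell membrane and its skeleton were called higher in K562 for 14 of 16 tested members and lower for none, 13 of the 16 having met the count filter through K562 alone. Of the 3 that met it in each line, 1 was called, and the 5 members not tested all had a higher pooled CPM in K562. The ammonium transporter subunit RHAG, part of the Rh complex, led with 550.4 to 617.7 CPM (median 577.9) against 0 counts in HEK293T, at least 295.2-fold higher. SPTB, the beta chain of the spectrin net under the membrane, had 62.98 to 78.5 CPM against 0 to 14.23 CPM, an 8.352-fold difference. Ankyrin ANK1, which ties spectrin to the membrane, was 54.65-fold higher and protein 4.1 (EPB41) 2.356-fold. The adducins ADD1 and ADD2 were not called, with log2 changes of 0.40 and 0.24. GYPB and GYPE, glycophorins with shared sequence, had 22.69 to 33.92 and 19.92 to 31.01 CPM in K562 and none in HEK293T. The Rh antigens RHCE and RHD had 257 and 228 counts in K562 and 0 in HEK293T, too few to be tested.

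Of the sequences that GATA factors bind, only AGATAA was searched, on either strand of RefSeq promoters (GRCh38.p14, 250 bases before to 50 after each start). It occurred in 3628 of 35116 promoters of all genes (10.3%) and in 10 of 23 promoters of the red cell membrane list (43.5%), which belong to EPB42, GYPB, GYPE, KEL, RHCE, RHD and SPTB. Several of these windows overlap or belong to related genes (GYPB with GYPE, RHCE with RHD). The abundance of EPB42, RHCE and RHD was not tested. Counted by gene, the match occurred in 7 of 15 genes of that list (46.7%) and in 3397 of 27305 of all genes (12.4%). In the other lists with more than 2 promoters the share of promoters ran from 3.45% to 21.4%, the highest being 3 of 14 for haem synthesis. It was 10.7% for the transcription factors, 11.6% for signalling and cytoskeleton genes of blood cells, 5.88% for iron handling and 4.76% for BCR-ABL1 signalling. For the neuronal-type genes, more of which were called lower than higher, it was 15.8%. By gene, the share in the same lists ran from 5.56% to 27.8%, the highest being 5 of 18 neuronal-type genes. A match describes the letters of a window and shows no binding. The promoters of RHAG, GATA1, KLF1 and TFRC, also called higher in K562, held no match. Those printed below belong to genes called higher and were picked as examples that hold a match, in capitals. They are the promoters of KEL, the Kell blood group protein, ALAS2, the red cell enzyme that starts haem synthesis, and EPOR, the erythropoietin receptor. In ALAS2 and EPOR the match lies on the other strand and reads TTATCT. Matches begin at -62, -127 and -78 from the start, and the windows are chr7:142962314-142962613, chrX:55030928-55031227 and chr19:11384265-11384564, all on the minus strand.
KEL: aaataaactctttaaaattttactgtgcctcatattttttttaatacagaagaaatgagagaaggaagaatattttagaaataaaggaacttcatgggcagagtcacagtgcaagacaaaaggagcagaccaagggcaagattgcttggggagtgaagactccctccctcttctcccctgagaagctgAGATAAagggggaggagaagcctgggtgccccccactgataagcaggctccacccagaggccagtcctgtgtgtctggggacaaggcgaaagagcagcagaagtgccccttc
ALAS2: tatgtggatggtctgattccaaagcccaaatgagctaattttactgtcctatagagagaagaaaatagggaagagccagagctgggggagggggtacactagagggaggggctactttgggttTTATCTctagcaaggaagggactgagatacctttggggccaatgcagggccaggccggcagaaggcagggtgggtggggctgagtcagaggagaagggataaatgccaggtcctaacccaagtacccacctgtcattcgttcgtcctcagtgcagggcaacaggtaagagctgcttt
EPOR: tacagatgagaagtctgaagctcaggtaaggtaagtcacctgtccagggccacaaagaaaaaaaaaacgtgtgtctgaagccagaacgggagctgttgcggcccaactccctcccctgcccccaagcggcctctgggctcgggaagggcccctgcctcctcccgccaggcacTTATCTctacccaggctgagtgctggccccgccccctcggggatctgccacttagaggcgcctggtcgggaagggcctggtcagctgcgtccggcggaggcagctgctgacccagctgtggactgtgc
KEL had 16.73 to 32.44 CPM in K562 and ALAS2 9.016 to 12.02 CPM, both without a count in HEK293T, at least 14.25-fold and 5.084-fold higher. EPOR had 11.17 to 17.44 CPM against 1 HEK293T count, a ratio of 21.25 (3.79 to 841.9).

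The enzymes of haem synthesis split more evenly, with 7 of 15 called higher, 1 lower and 7 not called, and a median log2 change of 0.89. Of the 8 members that met the count filter in each line, 3 were called higher and 0 lower. UROD, the fifth enzyme of the pathway, had 490.4 to 563.5 CPM in K562 (median 545.2) and 108.8 to 147.1 in HEK293T (median 116.7). The 4.911-fold difference was without overlap (adjusted p = 1.541e-72, edgeR). The mitochondrial iron importer SLC25A37 was 3.985-fold higher, the porphyrin transporter ABCB6 3.742-fold and TMEM14C, another porphyrin carrier, 2.37-fold. For ABCB6, 90.8% of windows also occur in other transcripts. ALAS1, the form of the first enzyme used outside red cells, stood at 24.66 to 42.76 CPM in K562 and 58.32 to 96.03 CPM in HEK293T, with a log2 change of -0.97 just short of 2-fold. ALAD, the second enzyme, was 2.047-fold lower in the full set. Without the first undepleted HEK293T library, which held the highest ALAD value of 66.66 CPM, its log2 change was -0.69 and not called. The call was also lost without the second RiboCop library, the first riboPools library or either cold-elution library, at log2 changes of -0.793, -0.996, -0.948 and -0.980.

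Among genes for iron handling, 5 of 14 were called higher, 1 lower and 8 not called, with a median log2 change of -0.04. The count filter was met in each line by 11 of them, with 3 called higher and 0 lower. TFRC, the transferrin receptor through which dividing cells take up iron (chr3:196049284-196082189, minus strand), had 1153 to 1263 CPM in K562 (median 1224). It had 182.5 to 364.9 CPM in HEK293T (median 331.9), so the lines did not overlap, and the log2 change was 2.08 ± 0.056 (SE; edgeR adjusted p = 4.356e-91), or 4.221-fold. Its relative TFR2 had 45.49 to 59.76 CPM in K562 and 1 count in HEK293T. The ferritin subunits differed: the light chain FTL was 2.456-fold higher in K562, whereas the heavy chain FTH1 was not called, with a log2 change of 0.05. For FTL 58.5% and for FTH1 90.2% of windows also occur in other transcripts, so this contrast is uncertain. NCOA4, which delivers ferritin for breakdown, was 2.822-fold higher. The haem-degrading enzyme HMOX1 had 3 counts in K562 against 33.33 to 85.4 CPM in HEK293T, lower by a ratio of 517.0 (171.6 to 2551), while HMOX2 was not called, with a log2 change of -0.37.

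Signalling and cytoskeleton genes of blood cells were called higher in K562 for 20 of 21 tested members and lower for none. With the experiments as replicates, 16 of 18 were called higher and 1 lower. Of the 21, 19 met the count filter through K562 alone. The remaining 11 of 32 members were not tested; 6 of them had a higher and 4 a lower pooled CPM in K562, and 1 was at or below the floor in both lines. PTPRC, the CD45 phosphatase, had 151.4 to 191.9 CPM in K562 and none in HEK293T, at least 82.28-fold higher. SPN, the CD43 sialophorin, was at least 134.7-fold higher, the integrin activator FERMT3 at least 136.1-fold and the small GTPase RAC2 at least 69.7-fold. The actin bundler LCP1 and the kinase LYN were present in both lines and differed 9.472-fold and 3.125-fold. KIT, the stem cell factor receptor, was not tested. It had 0.4363 to 7.046 CPM in K562, from 38 counts in the deeper libraries. In HEK293T, with 25 counts, it had 12.8 to 22.77 CPM in all libraries except the first undepleted one, which had 0. Only that library made the lines overlap, and the level was otherwise lower in K562. Of 24 markers of other blood lineages, 3 were tested, each having met the count filter through K562 alone. Their K562 levels were low: the lysozyme gene LYZ stood at 30.82 to 40.19 CPM, the T-cell gene CD3D at 15.67 to 22.29 CPM and the platelet glycoprotein gene THBS1 at 12.33 to 20.35 CPM.

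Genes of BCR-ABL1 signalling were called higher in K562 for 13 of 16 tested members and lower for none, with a median log2 change of 2.38 against 0.01 over all genes. Of the 10 members that met the count filter in each line, 7 were called higher and 0 lower, with a median of 1.52 against -0.05 over the 5776 such genes. STAT5A, a transcription factor activated by the fusion kinase (chr17:42287547-42311943, plus strand), had 540.2 to 580.5 CPM in K562 (median 545.2) and 6.402 to 11.86 in HEK293T (median 8.435). The difference was 65.25-fold without overlap (adjusted p = 5.79e-101, edgeR), and the other experiments gave 657.1 CPM in K562 and 8.881 in HEK293FT. STAT5B, its close relative, differed 11.37-fold, from 231.6 to 266.9 CPM in K562 against 14.23 to 49.99 CPM. Targets of STAT5 were higher as well: the survival kinases PIM1 35.24-fold and PIM2 9.56-fold, the feedback inhibitor CISH 12.46-fold, the anti-apoptotic BCL2L1 12.01-fold and the cyclin CCND3 6.349-fold.

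Of the fusion partners, ABL1 was called and BCR was not. ABL1 had 55.24 to 72.22 CPM in K562 (median 62.36) and 17.21 to 49.99 in HEK293T (median 30.84), a 2.402-fold difference without overlap. BCR was not called, with 64.22 to 76.29 CPM in K562, 51.23 to 140.8 in HEK293T and a log2 change of -0.16 ± 0.13 (SE; edgeR adjusted p = 0.2701). Counts per transcript do not tell fusion from normal transcripts. The adaptor CRKL, a direct substrate of the kinase, was 3.423-fold higher, whereas the adaptors GRB2 and SHC1 were not called, with log2 changes of 0.25 and 0.87. CCND2 was 2.33-fold higher over the 14 libraries but was not called with the experiments as replicates, with a log2 change of 0.70. Other transcripts also hold 82.2% of its windows.

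**Figure D4:**
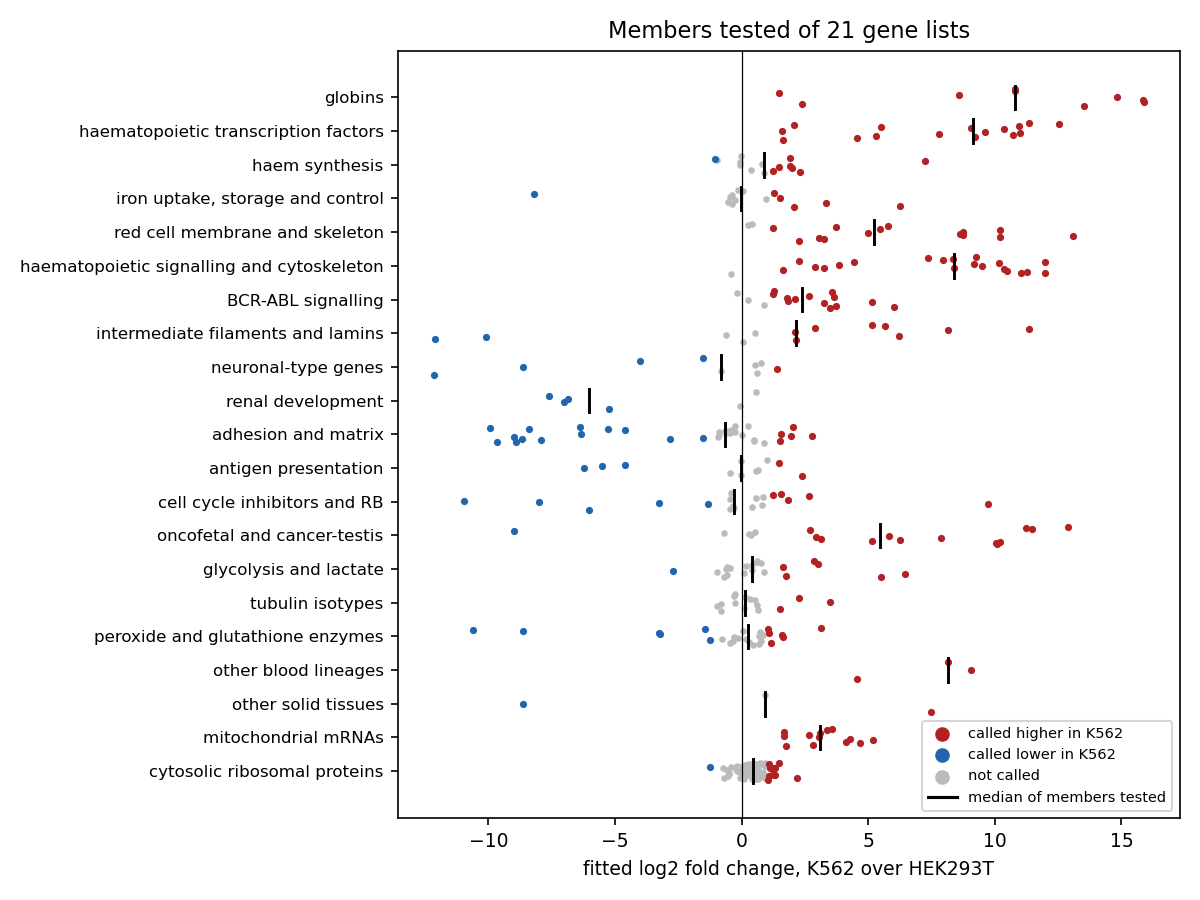
Fitted log2 fold change of K562 over HEK293T (horizontal axis) for every tested member of 21 gene lists, coloured by call, with the list median as a black bar. Globins, haematopoietic transcription factors, haematopoietic signalling genes and mitochondrial mRNAs lie to the right of 0, renal development genes mostly to the left, and ribosomal proteins near 0; the position of a gene without counts in a line depends on the fit and is no bound.

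Intermediate filament genes differed between the lines for keratins and neurofilaments, while vimentin was not called. Vimentin (VIM), the filament of mesenchymal and many cultured cells, had 894.5 to 979.7 CPM in K562 (median 927.9) and 926 to 1140 in HEK293T (median 1006). The groups overlapped and the log2 change of 0.04 ± 0.042 (SE) was not called (edgeR adjusted p = 0.3872). The keratins of simple epithelia were higher in K562: KRT8 stood at 687.8 to 718.2 CPM against 4 HEK293T counts, KRT18 was 7.454-fold higher, and KRT19 had 165.2 to 192.0 CPM against none. For KRT8 and KRT18, 73.7% of the 30-base windows each also occur in other transcripts of the annotation. Neurofilaments went the other way for the light and medium chains. NEFM had 0 counts in K562 and 281.7 to 404.0 CPM in HEK293T (median 327.1), at least 2716-fold lower, and NEFL had 1 count against 94.89 to 208.5 CPM. The heavy chain NEFH was instead higher in K562, at 39.63 to 53.06 CPM against 1 count. LMNA, the A-type lamin, was 4.258-fold higher, while the B-type lamins LMNB1 and LMNB2 were not called, with log2 changes of 0.53 and -0.62. In all, 8 of 13 tested members were called higher and 2 lower, and of the 5 that met the count filter in each line, 2 were called higher and 0 lower.

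Neuronal-type genes were tested for 9 of 23 members in the tables, with 4 called lower and 1 higher. Of the 6 that met the count filter in each line, 1 was called lower and 1 higher, and of the 14 not tested, 8 had a lower and 2 a higher pooled CPM in K562. UCHL1, a neuronal ubiquitin hydrolase, had no count in K562 and 275 to 395.6 CPM in HEK293T (median 335.6), at least 2819-fold lower. Brain-type creatine kinase (CKB) was present in both lines. It had 676.3 to 699.7 CPM in K562 (median 686.1) and 2137 to 2339 in HEK293T (median 2182), a log2 change of -1.51 ± 0.034 (SE; edgeR adjusted p = 9.374e-106). DPYSL2, a regulator of axon growth, was 16.07-fold lower and the adhesion protein NCAM1 lower by a ratio of 1192 (207.3 to 47710) on 1 K562 count. The microtubule-destabilizing protein STMN1 was 2.651-fold higher in K562. The neuronal tubulin TUBB3 was not called, with a log2 change of 0.61, and 97.4% of its windows also occur in other transcripts.

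Genes of kidney development were called lower in K562 for 4 of 6 tested members and higher for none, and these 4 met the count filter through HEK293T alone. SALL1, mutated in a syndrome with kidney malformation, had 0 to 0.8807 CPM in K562 (median 0.08627) and 25.61 to 38.41 in HEK293T (median 33.88), 128.7-fold lower without overlap (adjusted p = 2.84e-39, edgeR). The homeobox gene HOXA10 was 114.6-fold lower and GATA3, needed for the kidney duct, by a ratio of 400.0 (105.0 to 3396). EYA3 and SALL2 were not called, with log2 changes of 0.58 and -0.05. The remaining 16 of 22 members in the tables were not tested; 9 of them had a lower and 1 a higher pooled CPM in K562, and 6 were at or below the floor in both lines.

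Adhesion and matrix genes were called lower for 13 of 33 tested members, higher for 5 and neither for 15. Of the 33, 12 met the count filter through HEK293T alone; of the 18 that met it in each line, 1 was called lower and 3 higher, with a median log2 change of -0.26. The laminin chain LAMC1 had 0 to 1.03 CPM in K562 (median 0.5463) and 298.9 to 364.9 in HEK293T (median 310.7), 413.5-fold lower (adjusted p = 3.471e-112, edgeR). LAMA1 was at least 310.2-fold lower and LAMB1 2.845-fold. N-cadherin (CDH2) had 3 counts in K562 against 169.4 to 236.2 CPM, lower by a ratio of 1725 (585.0 to 8410). The Hippo pathway coactivators YAP1 and WWTR1 had no K562 count, at least 500.7-fold and 293.9-fold lower. The collagen chain COL4A1 had 1 count and the matrix protein SPARC 4. The members called higher in K562 were JUP (plakoglobin, 6.955-fold), VCL (vinculin, 2.861-fold), the integrin chains ITGA5 (2.961-fold) and ITGB5 (3.876-fold), and CAV2 (4.112-fold). CAV2 was low, at 8.807 to 15.71 CPM in K562 and 0 to 6.885 in HEK293T. The other experiments gave 10.51 CPM in K562 and 8.881 in HEK293FT. With the experiments as replicates, 4 of 30 list members were called higher and 12 lower. The integrin chain ITGB1 and fibronectin (FN1) were not called, with log2 changes of 0.03 and -0.46.

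Of 11 tested genes of antigen presentation, 2 were called higher in K562, 3 lower and 6 neither, and 4 of 10 higher and 3 lower with the experiments as replicates; none of the 4 that met the count filter in each line was called. HLA-B and HLA-C, heavy chains of HLA class I, had few counts in K562. HLA-C had 0 to 4.404 CPM in K562 (median 2.576) and 147.2 to 241.1 in HEK293T (median 197.0), 73.87-fold lower. HLA-B was 45.32-fold lower, and the lines overlapped for neither gene (edgeR adjusted p = 2.895e-85 and 1.334e-64). HLA-E, another class I heavy chain, went the other way without being called, at 70.74 to 95.99 CPM in K562 and 41.66 to 84.71 in HEK293T, a log2 change of 0.65. These genes are polymorphic and share sequence, with 23.4% of HLA-C windows also found in other transcripts, so their counts are uncertain. The light chain B2M was not called, with a log2 change of 0.996 that lay just short of 2-fold, and was called higher with the experiments as replicates. Tapasin (TAPBP), which loads peptides, was 5.287-fold higher in K562, and the transporter subunits TAP1 and TAP2 were not called, with log2 changes of -0.46 and -0.02.

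Among 19 tested regulators of the cell cycle and its arrest, 5 were called higher, 5 lower and 9 neither. With the experiments as replicates, 2 of 17 were called higher and 7 lower. In the 14 libraries, 11 of the 19 met the count filter in each line, with 3 called higher and 1 lower. MDM2, a ubiquitin ligase, was 2.52-fold lower in K562 (log2 change of -0.98, not called, in the undepleted libraries alone). The stress cytokine GDF15 had 50.83 to 62.83 CPM in K562 against 0 counts, and the apoptosis gene BAX was not called, with a log2 change of -0.43. The CDK inhibitor CDKN1A was not tested, with 4.768 to 11.63 CPM in K562 and 0 to 30.98 in HEK293T. RB1 was not called, with a log2 change of -0.33. CDKN2A, which encodes p16 and ARF, had no count in K562 and 104.3 to 172.9 CPM in HEK293T (median 154.5), at least 1235-fold lower, and CDKN2B, encoding p15, was at least 157.8-fold lower. CDKN2C, encoding p18, was 9.651-fold lower.

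Loss of CDKN2A from the genome is known for K562, and its neighbours on chromosome 9 were therefore examined after the value of CDKN2A had been seen; no DNA was measured. Between RPS6 and CAAP1 lie 29 genes of the tables, 10 of which had a count in any library. Over all 29 genes the K562 libraries held 125 counts, a pooled 5.128 CPM, against 641 counts or 429.3 CPM in HEK293T, and the other experiments held 0 in K562 against 426 in HEK293FT. FOCAD, KLHL9, MTAP, CDKN2A and CDKN2B were tested and called lower, all through their HEK293T counts. MTAP, the methionine salvage enzyme, and KLHL9, a ubiquitin ligase adaptor, had 0 counts in K562 against 51.63 to 94.89 and 66.66 to 108.8 CPM in HEK293T. FOCAD held 56 of the 125 K562 counts and was 22.36-fold lower. The flanking genes were present in both lines: the ribosomal protein gene RPS6 at a mean of 1825 CPM in K562 and 1944 in HEK293T, and CAAP1 at 17.5 and 38.7. ACER2, between RPS6 and MLLT3, went the other way in counts but not far in level, with 62 counts in K562 and 2 in HEK293T, means of 2.65 and 1.56 CPM.

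**Figure D5:**
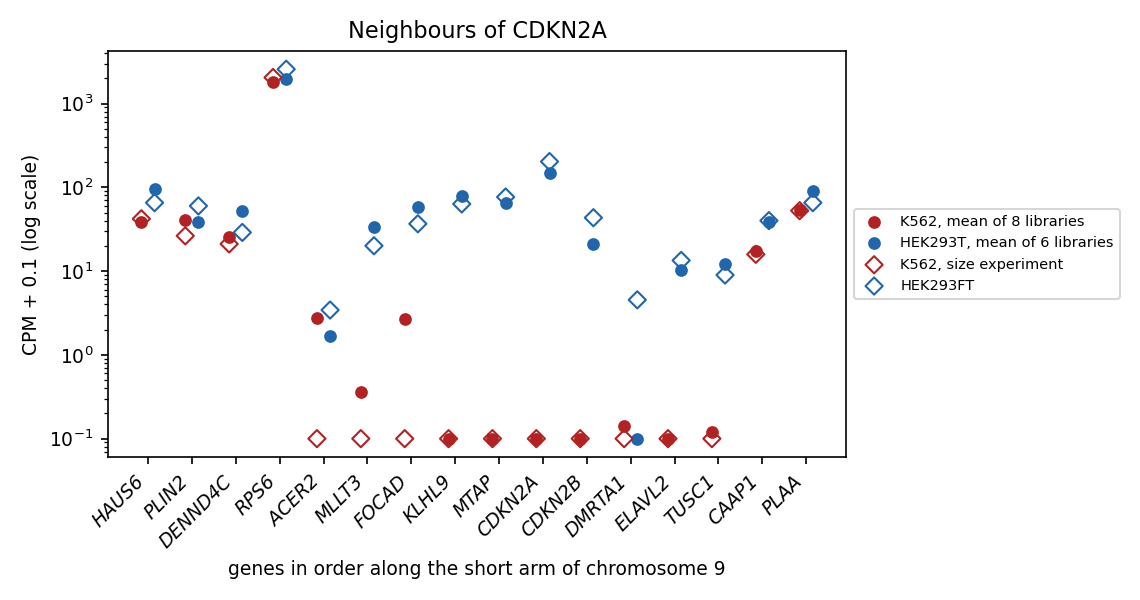
CPM plus 0.1 on a log scale for the genes around CDKN2A that have a count, in their order along the short arm of chromosome 9; filled points are means of the 8 K562 and 6 HEK293T libraries, and open diamonds the libraries of the other experiments. From KLHL9 to TUSC1 the K562 points lie at or close to 0 counts, while RPS6, CAAP1 and PLAA are present in both lines.

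Oncofetal and cancer-testis genes were called higher in K562 for 13 of 18 tested members and lower for 1, and 11 of the 18 met the count filter through K562 alone. Of the 6 that met it in each line, 2 were called higher and 0 lower. PRAME, a cancer-testis antigen (chr22:22547702-22559289, minus strand), had 2144 to 2276 CPM in K562 (median 2178) and 61.96 to 108.3 in HEK293T (median 66.41), 35.45-fold higher (adjusted p = 5.913e-144, edgeR). DLK1, an imprinted Notch-like protein, was at least 250.6-fold higher. MAGEA1 was 56.0-fold higher. GAGE1, GAGE2A, XAGE1A and XAGE1B had no HEK293T count, and members of these families share sequence, completely so for XAGE1A and XAGE1B, of whose counts 49.3% (95% interval 47.6 to 51.0) fell on XAGE1A. The chromatin proteins of the HMGA family went opposite ways: HMGA1 was 6.52-fold higher and HMGA2 at least 315.6-fold lower, with 0 counts in K562. For HMGA1, 57.3% of windows also occur in other transcripts. The RNA-binding proteins IGF2BP1 and LIN28B were not called, with log2 changes of 0.52 and 0.39.

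Most glycolytic enzymes did not reach the 2-fold rule: 14 of 21 tested members were not called, 6 were higher and 1 was lower. Among the 17 that met the count filter in each line, 2 were called higher and 1 lower. The members called were mostly isoforms. PKLR, the pyruvate kinase of liver and red cells, had 99.52 to 129.1 CPM in K562 and 2 counts in HEK293T, a ratio of 82.02 (22.68 to 677.6). The glucose transporter SLC2A3 was 44.9-fold higher and SLC2A1, the red cell form, 3.357-fold, the aldolase ALDOC 7.324-fold and the hexokinase HK1 3.104-fold. The muscle-type phosphofructokinase PFKM was 6.507-fold lower. GAPDH and ENO1 were not called, with log2 changes of 0.39 and 0.59, nor were the lactate dehydrogenase chains LDHA and LDHB, with -0.46 and -0.62. Other transcripts also hold 51.2% of the SLC2A3 windows and 92.9% of those of LDHB.

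Enzymes that handle peroxide and glutathione were called higher for 6 of 26 tested members and lower for 6. With library totals alone 3 were called higher and 6 lower, and with the experiments as replicates 3 of 25 higher and 5 lower. In the main fit, 22 of the 26 met the count filter in each line, with 6 called higher and 2 lower. Catalase (CAT) had 420.6 to 466.9 CPM in K562 (median 442.6) and 39.1 to 86.06 in HEK293T (median 46.95), 8.858-fold higher (adjusted p = 3.89e-77, edgeR). Glutathione peroxidase GPX1 had 0 counts in K562 and 84.71 to 150 CPM in HEK293T (median 120.8), at least 952.4-fold lower, and 59.7% of its windows also occur in other transcripts. GPX4 was not called, with a log2 change of 0.06. GSTM3 was 9.224-fold lower and GSTO1 3.001-fold higher. Tubulins were called higher for 3 of 15 tested members, the platelet form TUBB1 and also TUBA4A and TUBB6, and lower for none. Among the 13 tubulins that met the count filter in each line, 1 was called higher and 0 lower. The tubulin list median of 0.14 turned to -0.03 with library totals alone.

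Cytosolic ribosomal proteins summed to 127400 to 130200 CPM in K562 and 106600 to 111100 in HEK293T. Of 86 tested members, 11 were called higher, 1 lower and 74 neither, with a median log2 change of 0.46. All but 1 of them met the count filter in each line, and of these 85, 10 were called higher and 1 lower. With the experiments as replicates the median was 0.06, beside -0.06 over all genes, and of 85 tested members 0 were called higher and 1 lower. RPS18 was 2.515-fold higher over the 14 libraries and had a log2 change of 0.87 with the experiments as replicates. The paralog RPL26L1 was called lower in both fits, 2.377-fold over the 14 libraries. Other transcripts also hold 83.3% of the RPS18 windows and 75.8% of those of RPL26L1, so their counts are uncertain.

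All 13 mRNAs of the mitochondrial genome, which are translated by mitochondrial ribosomes, were called higher in K562, with log2 changes of 1.67 to 5.18 and a median of 3.11. The count filter was met in each line by 12 of the 13. Together the 13 mRNAs took 1.76 to 2.28% of K562 counts and 0.287 to 0.46% of HEK293T counts. The depletion kit and the experiment moved with this share: it was 0.287 to 0.308% in the Ribo-Zero Gold libraries, 0.392 to 0.46% with RiboCop and 0.411 to 0.45% undepleted, and it was 0.962% in HEK293FT against 2.44% in the K562 size library. Without the Ribo-Zero Gold libraries the median was 2.91, with undepleted libraries alone 2.54, and with the experiments as replicates 1.84, and all 13 remained called higher in each. MT-ND4, a complex I subunit, had 1734 to 2199 CPM in K562 (median 1909) and 65.46 to 208.5 in HEK293T (median 159.2), a log2 change of 4.13 over the 14 libraries and 2.96 between experiments. MT-CO1, the core of cytochrome oxidase, had 3194 to 4201 CPM and 1167 to 1512 CPM, with log2 changes of 1.69 and 1.28. Other transcripts also hold 67.9% of its windows. All 13 were higher in the K562 size library than in HEK293FT. In that pair MT-ND4 and MT-CO1 had log2 ratios of 2.786 and 1.234. MT-CO2 and MT-CYB had 0.625 and 0.823, short of 2-fold, against 2.379 and 1.321 for the undepleted kit experiment over HEK293T. The part of footprint size, which differed between the experiments, was not tested.

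Of the 12 genes with the largest fitted increase in K562, among called genes of at least 50 CPM whose libraries did not overlap, 5 lie on chromosome 11 and 3 on X. They were HBG2, HBG1, HBE1, HBZ, RHAG, DLK1, GATA1, FERMT3 and SPN, described above, and SLC43A3, RHOXF2 and RHOXF2B. SLC43A3, a purine base transporter, had 294.6 to 346.9 CPM in K562 and none in HEK293T, at least 164.5-fold higher. Other transcripts also hold 72.7% of its windows. RHOXF2 and RHOXF2B are X-linked reproductive homeobox genes that share 92.8% of their windows and summed to 568.7 CPM in K562, with none in HEK293T.

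At the other end, 5 of 12 lie on X. PLS3, the actin bundler plastin 3 (chrX:115561182-115650861, plus strand), had 0 counts in all 8 K562 libraries and 1632 to 1918 CPM in HEK293T (median 1731), at least 14240-fold lower. It had 0 counts in the K562 size library and 1411 CPM in HEK293FT, and no window of its coding sequence occurs elsewhere. IRS4, an insulin receptor substrate long known from HEK293 cells, had 4 counts in K562 and 736.2 to 939.8 CPM in HEK293T (median 845.6), a fitted 3295-fold difference (adjusted p = 1.214e-156, edgeR). AMOT, the scaffold protein angiomotin, had 1 count against 377.7 to 543.9 CPM, lower by a ratio of 12050 (2156 to 476500). ZNF503 and FHL1 also had 1 K562 count each, and TSPAN6, WLS and LIPA had none. LIPA encodes lysosomal acid lipase and WLS the carrier for Wnt secretion. UBE2C, the ubiquitin-conjugating enzyme of the anaphase-promoting complex, had 1 count in K562 and 192.2 to 302.9 CPM in HEK293T (median 250.2), and 314.2 CPM in HEK293FT. The ratio was 5894 (1051 to 233400), and 10.2% of its windows occur in other transcripts.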

How the data were processed

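Counts of ribosome-protected fragments per coding transcript were deposited by the authors for each library, with RPM values (reads scaled to a common library total) from the same counts; per the file headers both cover 19478 transcripts per table, and the RPM values were not used beyond a check that they equal scaled counts. Per the submitters' processing notes, CASAVA 1.8, STAR and the builds GRCh38 and hg38 were involved, with no role or order stated; counting rules and treatment of multiply mapping reads are not given in the sources used here. Of 19478 transcripts, 97.42% matched GENCODE 29 with the same version, which supplied positions and coding lengths, and sequences came from that release and RefSeq (GRCh38.p14).

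Tables were joined by transcript. Genes passing filterByExpr (minimum count 10) were tested with edgeR 4.0.16 (TMM scaling, quasi-likelihood test, 1 term for the line) over 14 libraries. The same test was run over 4 experiments, with only their undepleted libraries, summed within each experiment. Calls needed an adjusted p below 0.05 and at least 2-fold. Each SE was derived as the size of the log2 change divided by the square root of the F statistic, so it restates the test. Fold changes with few counts were replaced by pooled ratios or bounds (floor of 3 counts over the group). The scripts were tested on simulated data. Alternatives used DESeq2 1.42.0 and limma 3.58.1 (voom), other scalings, filters, library subsets and leave-one-out fits.

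The 21 gene lists (520 genes) and the members were chosen with earlier results of these data known. Named are list members and, by value, the 12 highest and 12 lowest fitted changes among called genes of at least 50 CPM in the higher line without overlap. MTAP, KLHL9, FOCAD, MLLT3, ACER2, TUSC1, RPS6, CAAP1 and PLAA were named for their position beside CDKN2A after the values were seen. The symbols MYC, SNAP25, NSG1, WT1, TEAD1, CCN1, CCN2, PKM and RPL40 did not match and were not analysed here. A few other list members are included in the counts and medians but are not reported here by name.

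The RiboCop pair differed by no more than sampling noise (chi-square per degree of freedom 1.027, p = 0.103). The other 6 pairs had values of 1.044 to 1.119, with chi-square p = 0.047 or lower over 2891 to 10247 genes. All pairs thus lay close to sampling noise, since over so many genes a small excess gives a low p. Both RiboCop libraries were kept because the labels give them different barcodes. The fits with counts summed per kit and without either library cover the choice.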

Additional observations from a re-analysis of the deposited data

Results flagged for a closer look

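Among 27 groups of 6 or 8 libraries examined for the genes named by value and the K562 markers, 3 held a library far from the others; chance alone marks about 1 group in 20. In the second undepleted HEK293T library TFRC stood at 182.5 CPM, while the next lowest HEK293T library had 329.8 and the highest 364.9; all remained below the lowest K562 value of 1153 CPM. In the second undepleted K562 library HBG2 stood at 3923 CPM, against 4071 in the next lowest and 4183 in the highest library. The same library had the lowest SLC43A3 value, 294.6 CPM, with 323.3 in the next lowest and 346.9 in the highest. It was also the shallowest K562 library, with 1031889 counts.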

How the results depend on the processing

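Depth limited the comparison on the HEK293T side, where 3 counts over all libraries are 2.009 CPM. Of 2794 called genes, the number became 5657 (2273 higher, 3384 lower) without a filter on low counts, 4945 (3093 lower) with DESeq2 and 1185 (631 higher, 554 lower) with K562 thinned to the HEK293T depth, where 4490 genes were tested. A stricter filter, a mean of 20 counts, left 819 genes called lower. Leaving out each library in turn gave 2711 to 2969 called genes, 1386 to 1526 higher and 1317 to 1501 lower. The other settings gave counts within 1.5 times: 2783 with DESeq2 size factors, 2881 with library totals alone, 2721 with a 1.5-fold null, 2798 with voom, 2058 with undepleted libraries only, 3338 without Ribo-Zero Gold, 2868 with 1 term per kit and 3756 with counts summed per kit. The replicate block nested in cell line gave 2816 called genes, 1479 higher and 1337 lower; libraries with the same replicate number did not deviate together (correlations between kits of -0.0985 to 0.119), so the numbers were not taken as pairs. Of 2449 genes called with the experiments as replicates, leaving out 1 experiment gave 414 to 3046, no filter gave 3910 and the 20 to 60 nt K562 library in place of the 20 to 34 nt one gave 2264. Of 393 named genes tested, 217 were called, 204 of these stayed called in every one of 27 alternatives that tested them, and 0 reversed direction. The causes of these changes were not tested, apart from the number of genes tested.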

Other observations

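Fold changes were also summarised along chromosomes, with no test of whether neighbouring genes differ together. Among 216 windows of 10 Mb with at least 15 tested genes, 47 had a median log2 change beyond 0.5 in either direction. The lowest median was -1.73, on chromosome 13 from 70 to 80 Mb, where 14 of 17 tested genes were called lower and 0 higher; with the experiments as replicates the median was -1.71. On X from 100 to 110 Mb the median was -1.49 over 38 genes, 21 of them called lower and 2 higher, and -1.46 with the experiments as replicates. The highest median was 1.34, on chromosome 1 from 240 to 250 Mb, with 14 of 23 genes called higher and 1.3 with the experiments as replicates. By whole chromosome, the median was -0.58 on 22, where 65 of 216 tested genes (30.1%) were called lower, -0.47 on 14 and -0.35 on X, and it was 0.30 on 21, 0.27 on 6 and 0.24 on 19. With the experiments as replicates the medians of 22, 14 and X were -0.69, -0.49 and -0.41, those of 21 and 6 were 0.31 and 0.22, and that of 19 was 0.04. These windows and chromosomes were picked for their values, and no DNA was measured.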
